A study of Mus musculus and Homo sapiens with 67 samples.

Results

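PSN1, an established human pancreatic cancer cell line, was grown in 4 arms: the combination of tazemetostat and RMC-6236, RMC-6236 alone, tazemetostat alone, and a control arm that the series text gives as DMSO. Each arm had 3 RNA-seq libraries, and these 12 libraries, of 67 samples in the series, are described here for one question: whether the combination gave each gene the level expected when the separate drug effects are added. The labels name no engineered allele. The labels state neither dose nor time, and they do not say whether the 3 libraries of an arm came from separate cultures, so p-values measure the spread between these libraries, which may be technical.

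Tazemetostat blocks EZH2, the enzyme of polycomb repressive complex 2 (PRC2) that methylates histone H3 on lysine 27 and keeps developmental, immune and other genes silent. RMC-6236 binds the active form of RAS proteins and stops their signal to the MAP kinase cascade, which in pancreatic cancer drives proliferation and growth. Genes under both kinds of control need not answer to a pair of drugs as the sum of the single answers. The interaction measures that difference. It is the tazemetostat effect in the presence of RMC-6236 (combination minus RMC-6236) minus the tazemetostat effect in its absence (tazemetostat minus control), on log2(FPKM + 1), where FPKM is the deposited expression value, scaled for transcript length and library size. A positive value means that the combination lies above the additive expectation and a negative value that it lies below. An interaction of 0 means that the effects add on the log scale, which is close to multiplication of fold changes where FPKM is well above 1. At low FPKM the scale understates changes, which can move an interaction in either direction. The additive expectation printed below is that sum returned to FPKM. Interactions and effects are given in log2 units ± standard error, and mean levels as FPKM ± SD over the 3 libraries of an arm.

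Of 60564 genes listed, 13358 reached 1 FPKM in at least 3 libraries and were tested. Genes at 1 FPKM or more numbered 12743 to 12772 in the combination libraries, 12403 to 12436 with RMC-6236, 12050 to 12113 with tazemetostat and 11632 to 11653 in control, and read depth is not known from FPKM. Mitochondrial transcripts took 26.1% to 26.9% of all FPKM in the combination arm, 24.2% to 25.2% with RMC-6236, 23.5% to 23.9% with tazemetostat and 22.7% to 23.2% in control; their part in the results was not tested. All 8 epithelial markers checked, such as KRT19 and EPCAM, were at 1 FPKM or more in every arm. Of 6 leukocyte markers the defining gene PTPRC reached at most 0.0244 FPKM in any library and CD3E was listed at 0 throughout. Others were expressed: CD68 averaged 23.4 FPKM in the combination arm, 13.1 with RMC-6236, 12.7 with tazemetostat and 7.57 in control, LYZ averaged 10.6, 1.52, 19.1 and 2.62 in the same order, and CD14 averaged between 8.02 and 9.33 in all arms. The summed level of the 6 was 41 to 44.4 FPKM in the combination libraries, 21.4 to 27.9 with RMC-6236, 38.5 to 41.5 with tazemetostat and 18 to 21.1 in control. Endothelial markers summed to at most 6.08 FPKM in any library, acinar to at most 1.8 and islet to at most 0.104, with AMY2A, INS, SST and CHGA listed at 0 throughout. Of 7 fibroblast markers COL1A2 was near 0, but LUM averaged 76.7 FPKM in the combination arm, 60.4 with RMC-6236, 25.2 with tazemetostat and 12.7 in control. The summed level of those 7 markers was 119.1 to 122.0 FPKM, 115.8 to 118.3, 43.5 to 45.1 and 29.4 to 29.7 in the same order of arms, and the part of these marker levels in the results was not tested.

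DUSP6, the ERK phosphatase that reports MAP kinase output, read 6.45, 5.94 and 6.29 FPKM in the combination libraries, 6.47, 6.56 and 6.65 with RMC-6236, 75.3, 78.3 and 75.6 with tazemetostat and 79.996, 79.7 and 80.9 in control. The arms with RMC-6236 were both low and the arms without it both high, and the observed combination lay at the additive expectation of 6.2 FPKM (interaction 0.00 ± 0.04, adjusted p = 0.95). EZH2 itself, the target of tazemetostat, read 7.81, 7.34 and 7.75 FPKM in the combination, 9.21, 9.87 and 10.2 with RMC-6236, 14.4, 15.3 and 16.3 with tazemetostat and 15.8, 16 and 15.4 in control. The 3 combination libraries were the lowest of the 12 and did not overlap with the RMC-6236 libraries. They averaged below the additive expectation of 9.44 FPKM (-0.27 ± 0.06, adjusted p = 0.0079).

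Departure from additivity was common and mostly small. By limma with Benjamini-Hochberg adjustment, 3157 genes had an interaction (23.6% of those tested): 1309 lay above the additive expectation (9.8%) and 1848 below it (13.8%). The median size was 0.29 log2 units above and -0.32 below. The median over all tested genes was -0.02, with quartiles at -0.13 and 0.08. After rescaling each library by its median ratio the all-gene median was near 0 (0.00095), and 1654 genes lay above and 1571 below, so which direction holds more genes turns with the scaling. Interactions of at least 1 log2 unit were rarer, with 89 above (0.666% of tested genes) and 43 below (0.322%). These are bulk libraries, so fewer cells with a transcript and less of it per cell cannot be told apart.

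The pseudocount decides part of the count. With 0.1 in place of 1, 1052 of the 1309 genes above stayed called above (80.4%) and 1681 of the 1848 below stayed called below (91%), while 37 and 3 genes had the other sign. AXIN2, a feedback inhibitor of WNT signalling chosen here after its values were seen, is such a gene. It read 9.42, 9.22 and 9.15 FPKM in the combination, 1.83, 2.08 and 1.88 with RMC-6236, 1.61, 1.98 and 1.84 with tazemetostat and 0.153, 0.0991 and 0.103 in control, and its interaction was 0.48 ± 0.08 with a pseudocount of 1 but -0.93 with 0.1. On plain FPKM differences, 98.3% of the genes above and 96% of those below had the same sign as on the log scale.

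Set out by the tazemetostat effect, genes above additivity were mainly genes that tazemetostat raised further once RMC-6236 was present. Of the 1309, 532 were raised by tazemetostat in both settings and more with RMC-6236, and 384 passed the test for tazemetostat only with RMC-6236, all of them upward. A further 202 passed it only without RMC-6236. Of the 1848 below, 680 passed it only with RMC-6236, all downward, 472 were lowered in both settings and more with RMC-6236, 258 passed it only without RMC-6236, 216 were raised in both but less with it, and 206 were raised without RMC-6236 and lowered with it. The interaction is the difference of the 2 tazemetostat effects, so directions within a class follow largely from its sign and are no separate result. For comparison, 54.2% of all tested genes were called for tazemetostat with RMC-6236 (24.1% higher and 30.1% lower) and 46% without it (23.6% higher and 22.5% lower). Across all tested genes the 2 tazemetostat effects, which share no library, had a Pearson r of 0.75 and a Spearman rho of 0.67, a description over genes that are not independent of each other.

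Seen from the other drug, 538 of the 1309 genes above were raised by RMC-6236 in both settings and more with tazemetostat, and 443 were lowered in both but less with tazemetostat. Of the 1848 below, 798 were raised by RMC-6236 in both settings but less with tazemetostat, and 545 were lowered in both and more with it. The same limit holds for directions within these classes. RMC-6236 itself was called for 79.9% of all tested genes with tazemetostat (43.8% higher and 36.1% lower) and for 80.4% without it (45.8% higher and 34.6% lower).

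**Figure D1:**
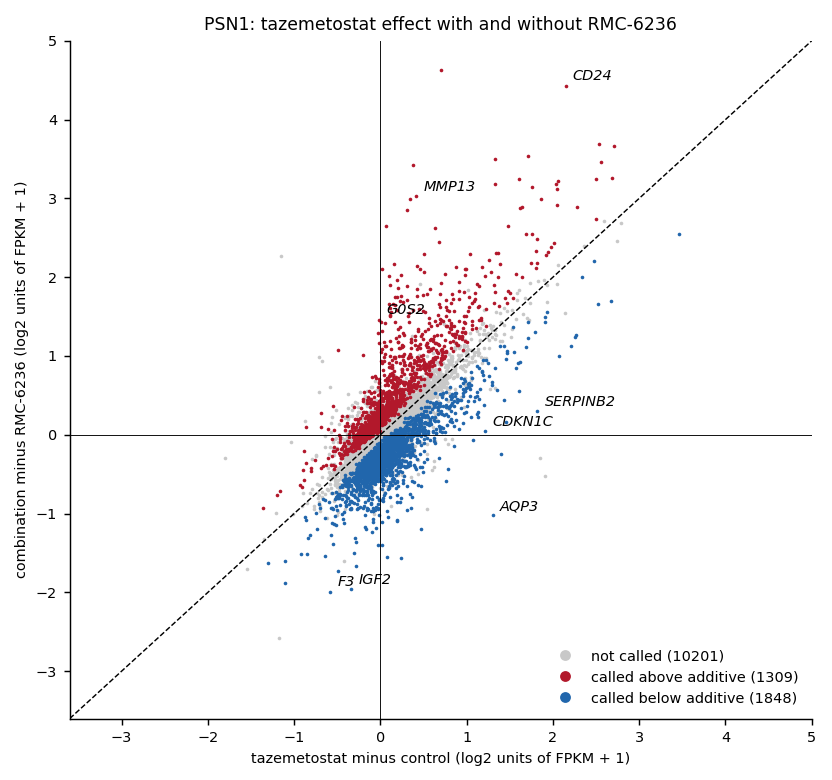
Each point is 1 of the 13358 tested genes, with the tazemetostat effect without RMC-6236 on the x axis and with RMC-6236 on the y axis, both in log2 units of FPKM + 1; the dashed line is additivity. The 1309 red genes lie above the line, with CD24 and MMP13 far up, and the 1848 blue genes below it, where AQP3 sits in the quadrant of opposite effects.

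Genes far above additivity were mostly near silence in control. Of the 89 genes at 1 log2 unit or more, 73 averaged under 1 FPKM in control (82%), against 13% of all tested genes, and their median level was 5.73 FPKM in the combination, 0.459 with RMC-6236, 0.552 with tazemetostat and 0.0416 in control. A share of this follows from the entry filter: 199 tested genes reached 1 FPKM in the combination arm alone, and 143 of them, 44 of the 89 included, were called above. Keeping only the 12364 genes that averaged at least 1 FPKM over all 12 libraries, an alternative added after seeing the data, left 1151 genes above and 1749 below, with 62 above and 42 below at 1 log2 unit or more. The scale can add to this, because a pseudocount of 1 shrinks single-drug folds at such levels and lowers the expectation. At a pseudocount of 0.1, 77 of the 89 stayed called above (86.5%) and 0 reversed, but 0.1 still exceeds their median control level. Whether these genes exceed the product of plain folds was not tested.

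The genes named first had a call of the same sign at both pseudocounts, averaged at least 5 FPKM in 1 arm and had no library at 0. SPINK1, a secreted trypsin inhibitor, led them. It read 7.33, 7.58 and 8.06 FPKM in the 3 combination libraries, 0.0723, 0.0178 and 0.183 with RMC-6236, 0.573, 0.353 and 0.16 with tazemetostat and 0.0387, 0.0684 and 0.0888 in control. Only the combination was above 1 FPKM, against an additive expectation of 0.382, and the interaction was 2.65 ± 0.13 (adjusted p = 3.7e-08), or 4.05 at a pseudocount of 0.1. MMP13, a collagenase, read 21.7, 21 and 20.2 FPKM in the combination, 1.86, 1.58 and 1.65 with RMC-6236, 0.449, 0.528 and 0.481 with tazemetostat and 0.116, 0.112 and 0.118 in control. Each drug alone raised MMP13 without overlap with control, yet the combination stood far above their sum of 2.59 FPKM (2.61 ± 0.07, adjusted p = 1.5e-10). SLC40A1, the iron exporter ferroportin, followed with 5.87, 6.25 and 6.3 FPKM in the combination, 0.131, 0.152 and 0.183 with RMC-6236, 0.702, 0.76 and 0.476 with tazemetostat and 0.0909, 0.0366 and 0.0496 in control (1.99 ± 0.09, adjusted p = 1.7e-08). Here too the combination libraries were the only ones over 1 FPKM.

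CD24, a surface glycoprotein of epithelial and stem-like cells, was already raised by tazemetostat. Its values were 44.5, 42.9 and 42.4 FPKM in the combination, 0.922, 1.04 and 1.22 with RMC-6236, 4.03, 3.96 and 4.22 with tazemetostat and 0.195, 0.0998 and 0.143 in control. No 2 arms overlapped, and the interaction of 2.28 ± 0.07 stands on an expectation of 8.1 FPKM. At a pseudocount of 0.1 it was 1.13, still called. CD24 averaged 0.146 FPKM in control, so the expectation and the size of this interaction depend on the pseudocount. As a plain ratio of means its tazemetostat rise was larger with RMC-6236, but by less than the interaction at either pseudocount. CD24 has near-identical pseudogene copies that can share its reads, so its level is uncertain. TNFAIP6, a secreted hyaluronan-binding protein of inflamed tissue, had the same pattern, with 28.6, 29.6 and 29.9 FPKM in the combination, 2.4, 2.1 and 2.08 with RMC-6236, 4.2, 4.45 and 3.93 with tazemetostat and 0.674, 0.706 and 0.715 in control (1.64 ± 0.07). GSTA1, a glutathione transferase, instead followed RMC-6236. It read 24.1, 27.3 and 27.1 FPKM in the combination and 5.99, 6.15 and 5.78 with RMC-6236, while tazemetostat left 0.315, 0.422 and 0.392 and control 0.245, 0.137 and 0.246 (1.77 ± 0.08); its near-identical paralogue GSTA2 may share reads. The pseudogene CYP21A1P, which shares sequence with the functional CYP21A2 and is uncertain for that reason, averaged 7.18 ± 0.774 FPKM in the combination, 1.41 ± 0.21 with RMC-6236, 0.355 ± 0.161 with tazemetostat and 0.149 ± 0.12 in control (1.53 ± 0.15).

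HMOX1, the heme oxygenase induced by oxidative stress, was raised by RMC-6236 alone and was higher again in the combination. Its libraries held 43.3, 44.7 and 44.9 FPKM in the combination, 13.4, 13.1 and 13.4 with RMC-6236, 4.03, 4.92 and 4.06 with tazemetostat and 3.86, 3.53 and 4.05 in control. Tazemetostat and control overlapped, and the combination exceeded its expectation of 14.8 FPKM by 1.52 ± 0.08 log2 units (adjusted p = 5.9e-08).

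In another set RMC-6236 alone lowered a gene and the combination stayed above it. G0S2, an inhibitor of the main triglyceride lipase of fat droplets, read 173, 171 and 177 FPKM in the combination, 62, 61.5 and 63.2 with RMC-6236, 131, 131 and 129 with tazemetostat and 134, 127 and 133 in control. Tazemetostat alone did not pass the test for G0S2 (-0.01 ± 0.02, adjusted p = 0.73), RMC-6236 alone lowered it, and the combination was above all other libraries (1.47 ± 0.03, adjusted p = 4.0e-11). GADD45A, a stress and DNA damage response protein, was similar, with 45.3, 45.6 and 47.2 FPKM in the combination, 13.5, 14.1 and 13.3 with RMC-6236, 19.8, 19.6 and 20.7 with tazemetostat and 17.1, 15.7 and 16.7 in control (1.42 ± 0.05). SLC16A6, a monocarboxylate transporter, averaged 26.3 ± 0.388 FPKM in the combination, 7.43 ± 0.365 with RMC-6236, 43 ± 1.39 with tazemetostat and 36.7 ± 0.433 in control (1.47 ± 0.05). ANGPTL4, an inhibitor of lipoprotein lipase, averaged 13.3 ± 1.01, 5.77 ± 0.417, 57.3 ± 1.24 and 81.1 ± 3.38 FPKM in the same order of arms (1.57 ± 0.08). For both genes the combination stayed below control but above RMC-6236 in all 3 libraries.

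**Figure D2:**
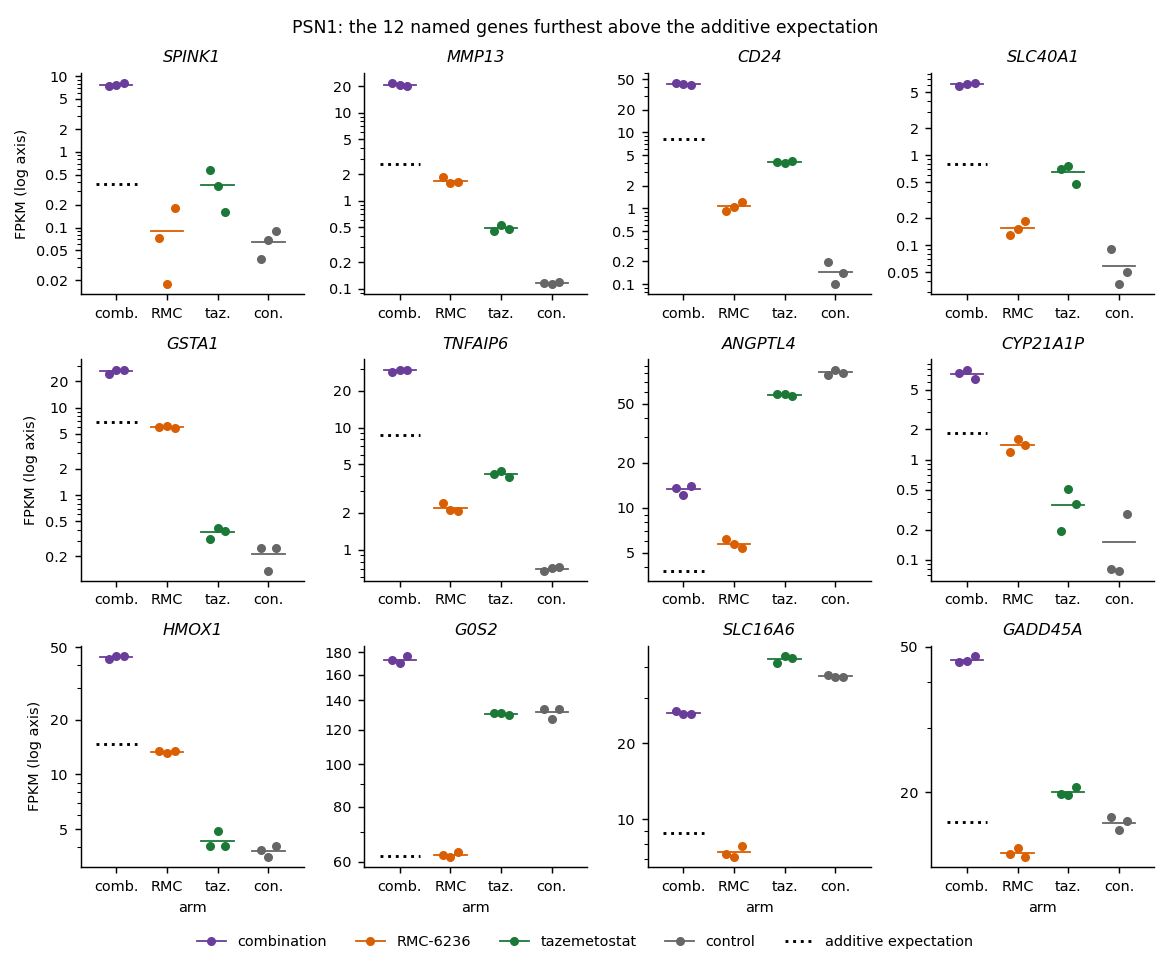
FPKM on a log axis in each of the 12 PSN1 libraries for the 12 named genes furthest above additivity, with the arms from left to right as combination (comb.), RMC-6236 (RMC), tazemetostat (taz.) and control (con.); points are libraries, lines are means of 3, and the dotted line marks the additive expectation for the combination. The genes were picked for this distance, and in all 12 the 3 combination points lie above the dotted line. For SPINK1 that is 7.33 to 8.06 FPKM against 0.382.

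Large departures also occurred among genes with a library listed at 0, which the naming rule left out and which were chosen after their values were seen. FDCSP, a small protein secreted by follicular dendritic cells, read 29.6, 31 and 31.4 FPKM in the combination, 0.26, 0.343 and 0.24 with RMC-6236 and 0.469, 0.701 and 0.737 with tazemetostat, and was listed at 0 in all control libraries. ALDH1A1, a retinaldehyde dehydrogenase, read 53.7, 54.9 and 53 FPKM in the combination, 4.1, 3.71 and 4.57 with RMC-6236, 0.37, 0.46 and 0.251 with tazemetostat and 0.0583, 0.0664 and 0 in control, against an expectation of 5.67 (3.04 ± 0.09, adjusted p = 3.9e-10; 1.97 at a pseudocount of 0.1). SLC34A2, a sodium phosphate cotransporter, read 5.69, 5.89 and 5.43 FPKM in the combination and at most 0.0738 in any other library. UBD, the ubiquitin-like protein FAT10, read 6.25, 6.34 and 6.09 FPKM in the combination and 0.352, 0.227 and 0.151 with tazemetostat, and was listed at 0 in all RMC-6236 and control libraries. In all 4 genes the combination libraries were separate from every other library. All 4 averaged under 0.1 FPKM in control, so their expectations and the sizes of their interactions depend on the pseudocount. As a plain ratio of means the tazemetostat rise of ALDH1A1 was larger with RMC-6236, but by less than its interaction at either pseudocount.

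Below additivity, AQP3, a water and glycerol channel, stood furthest out and moved in opposite directions. It read 8.1, 9.13 and 9.46 FPKM in the combination, 18.6, 19.6 and 19 with RMC-6236, 41.9, 42.4 and 41.1 with tazemetostat and 16.5, 17.2 and 15.4 in control. Tazemetostat raised AQP3 without RMC-6236 (1.3 ± 0.05) and lowered it with RMC-6236 (-1.02 ± 0.05), so that the combination was lowest of all arms while the expectation was 48.5 FPKM (-2.33 ± 0.07, adjusted p = 3.7e-10). PDGFRA, a receptor tyrosine kinase, showed the same reversal. Its libraries read 2.48, 2.53 and 2.51 FPKM in the combination, 4.05, 4.17 and 4.58 with RMC-6236, 7.78, 8.41 and 7.88 with tazemetostat and 4.32, 4.27 and 4.39 in control, and RMC-6236 and control overlapped (-1.35 ± 0.06, adjusted p = 1.1e-08). THBS1, the matrix glycoprotein thrombospondin 1, was also raised without RMC-6236 and lowered with it, and averaged 7.94 ± 0.296 FPKM in the combination, 16 ± 0.219 with RMC-6236, 25.1 ± 0.527 with tazemetostat and 19.5 ± 0.22 in control (-1.28 ± 0.04).

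A second pattern below additivity was that each drug raised a gene and both together raised it little or no further. CDKN1A, the cyclin-dependent kinase inhibitor p21, read 13.1, 12 and 12.1 FPKM in the combination, 14.9, 15.2 and 14.6 with RMC-6236, 9.999, 9.79 and 9.37 with tazemetostat and 2.99, 3.25 and 2.98 in control. Every drug arm was above control, but the combination lay below RMC-6236 alone in all 3 libraries and far from the expectation of 40.9 FPKM (-1.64 ± 0.06, adjusted p = 8.6e-10). CDKN1C, the related inhibitor p57, read 102, 104 and 105 FPKM in the combination, 97.3, 102 and 101 with RMC-6236, 7.07, 7.09 and 7.6 with tazemetostat and 2.59, 2.57 and 2.54 in control. Tazemetostat raised CDKN1C without RMC-6236, the combination and RMC-6236 libraries overlapped, and the expectation was 233 FPKM (-1.16 ± 0.04, adjusted p = 1.0e-09). IGFBP5, a binding protein of insulin-like growth factors, averaged 6.08 ± 0.184 FPKM in the combination, 5.31 ± 0.229 with RMC-6236, 6.22 ± 0.225 with tazemetostat and 1.64 ± 0.147 in control (-1.28 ± 0.07). TNFSF9, the ligand of 4-1BB, a receptor on T cells, averaged 9.01 ± 0.148, 10.02 ± 0.247, 4.77 ± 0.516 and 2.22 ± 0.482 FPKM in the same order (-0.99 ± 0.13, adjusted p = 0.00013).

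In a further set RMC-6236 raised a gene and adding tazemetostat took part or all of that rise away. PEG10, an imprinted gene derived from a retrotransposon, read 13.9, 13.3 and 13.2 FPKM in the combination, 42.3, 39.5 and 42.7 with RMC-6236, 8.81, 8.53 and 8.78 with tazemetostat and 8.06, 8.15 and 8.47 in control. Tazemetostat alone did not pass the test for PEG10 (adjusted p = 0.1), and the interaction was -1.63 ± 0.05 (adjusted p = 3.7e-10). IGF2, an imprinted growth factor whose locus overlaps a readthrough transcript with INS, read 22.8, 23.1 and 21.4 FPKM in the combination, 87.3, 90.1 and 92.8 with RMC-6236, 40.8, 42 and 41.6 with tazemetostat and 53.5, 51.6 and 53.4 in control. It was highest with RMC-6236 and lowest in the combination, with no overlap between arms (-1.62 ± 0.04, adjusted p = 1.5e-10). PHOSPHO1, a phosphatase of bone mineralisation, averaged 9.91 ± 1.08 FPKM in the combination, 23.9 ± 0.15 with RMC-6236, 8.54 ± 0.265 with tazemetostat and 5.88 ± 0.625 in control (-1.67 ± 0.10). CRIP2, a LIM-domain protein, averaged 4.64 ± 0.336, 16.9 ± 0.735, 1.77 ± 0.108 and 2.35 ± 0.137 FPKM in that order (-1.39 ± 0.07). LCNL1, a lipocalin-like gene, averaged 8.13 ± 0.163 FPKM in the combination and 23 ± 0.745 with RMC-6236, against 0.0549 ± 0.0292 with tazemetostat and 0.0442 ± 0.00706 in control (-1.41 ± 0.05).

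F3, the tissue factor that starts blood coagulation, was lowered by both drugs and lowered most by both together. It read 16.8, 16.5 and 17.1 FPKM in the combination, 71.2, 68.7 and 69.2 with RMC-6236, 93.5, 92.7 and 93.4 with tazemetostat and 138, 141 and 139.9 in control. The arms did not overlap, and the expectation was 46.3 FPKM (-1.41 ± 0.03, adjusted p = 2.2e-11). SERPINB2, an inhibitor of plasminogen activators, was highest with tazemetostat alone, at 0.199, 0.268 and 0.339 FPKM in the combination, 0.0479, 0.0191 and 0.0185 with RMC-6236, 5.36, 5.93 and 4.85 with tazemetostat and 0.678, 0.82 and 0.912 in control (-1.52 ± 0.10). Both arms with RMC-6236 lay under 1 FPKM, where the pseudocount shrinks a fold, and RMC-6236 alone averaged 0.0285 FPKM. The interaction of SERPINB2 was -1.09 at a pseudocount of 0.1, which also exceeds that level. As a plain ratio of means the tazemetostat rise was larger with RMC-6236 than without it. The direction of this interaction therefore depends on the pseudocount.

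**Figure D3:**
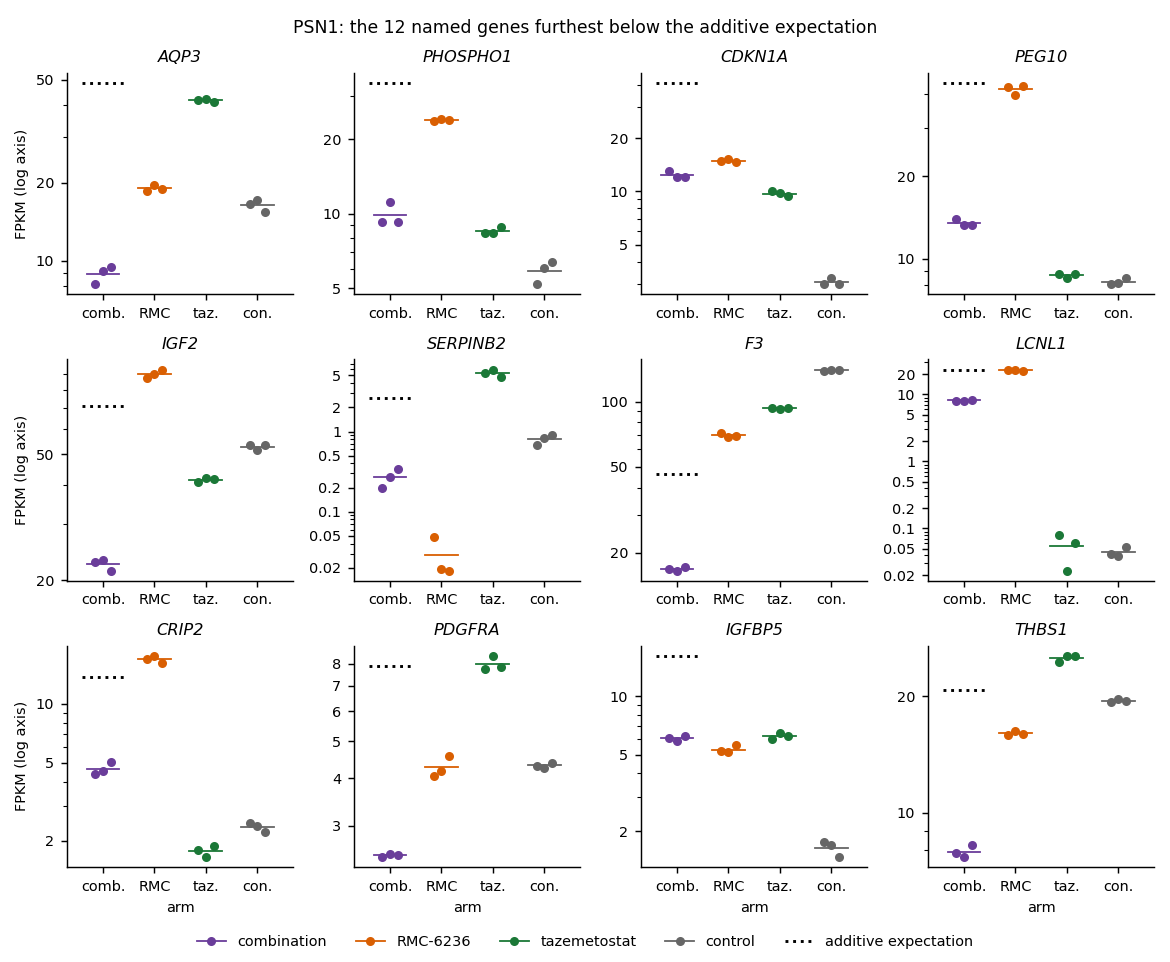
The same plot for the 12 named genes furthest below additivity, with FPKM on a log axis, arms from left to right as combination, RMC-6236, tazemetostat and control, points for libraries, lines for means of 3 and a dotted line for the additive expectation. The genes were picked for this distance, and in all 12 the combination points lie under the dotted line. For AQP3 they read 8.1 to 9.46 FPKM against 48.5.

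Gene lists were then described by how many tested members were called, beside 9.8% above and 13.8% below over all tested genes. The MHC class II list, the chains and chaperones that present peptides to CD4 T cells, had all of its 13 tested members above additivity by limma and 0 below, at an unadjusted p under 0.05 as well, with a median interaction of 0.60. HLA-DOA reached 1 FPKM in the combination arm alone, and 12 members stayed called at a pseudocount of 0.1. HLA-DRA, the alpha chain of HLA-DR, read 209, 203 and 202 FPKM in the combination, 60.3, 63.4 and 56.9 with RMC-6236, 106, 113 and 108 with tazemetostat and 52.5, 53.9 and 52.4 in control. RMC-6236 alone moved HLA-DRA little (0.18 ± 0.03), tazemetostat raised it in both settings, and the combination stood above the expectation of 124 FPKM (0.72 ± 0.05, adjusted p = 4.3e-07). HLA-DQA1 averaged 4.91 ± 0.158 FPKM in the combination, 0.199 ± 0.0329 with RMC-6236, 1.88 ± 0.0179 with tazemetostat and 0.138 ± 0.0152 in control (0.96 ± 0.06), and HLA-DMB, which helps load peptides, had an interaction of 0.77 ± 0.08. CIITA, the transactivator of class II genes, named for that role after its values were seen, read 6.14, 6.13 and 6.14 FPKM in the combination, 3.16, 3.23 and 3.34 with RMC-6236, 3.22, 3.2 and 3.46 with tazemetostat and 2.74, 2.96 and 2.92 in control. RMC-6236 and tazemetostat overlapped for CIITA, and the combination stood above all other libraries (0.60 ± 0.05, adjusted p = 5.0e-06). HLA-DRB1 and HLA-DRB5, also in the list, are near-identical and may share reads.

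The MHC class I list had 5 of 18 tested members above (27.8%) and 2 below (6 and 0 after rescaling), with a median of 0.02. PSMB10, an immunoproteasome subunit, had the largest value at 0.38 ± 0.09, and HLA-E averaged 77.6 ± 1.6 FPKM in the combination, 50.1 ± 0.343 with RMC-6236, 35.2 ± 0.734 with tazemetostat and 26 ± 1.16 in control (0.20 ± 0.04). Interferon-stimulated genes were near the background in both directions, with 5 of 46 above, 6 below and a median of -0.03. CXCL10, a T-cell attractant, was raised by tazemetostat in both settings and averaged 19.8 ± 0.615 FPKM in the combination, 2.99 ± 0.103 with RMC-6236, 9.47 ± 1.07 with tazemetostat and 1.65 ± 0.16 in control. Its interaction of 0.40 ± 0.09 was lost at a pseudocount of 0.1 (adjusted p = 0.171).

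Lipid synthesis genes lay above additivity more often than the background. Of 28 tested genes of cholesterol and fatty acid synthesis 18 were above and 1 below, with a median of 0.20. SCD, the desaturase that makes monounsaturated fatty acids, read 122, 122 and 122 FPKM in the combination, 65.8, 65.4 and 65 with RMC-6236, 78.2, 79.3 and 82 with tazemetostat and 67.3, 66.2 and 64.7 in control (0.62 ± 0.03, adjusted p = 1.7e-08). The combination was the highest arm for SCD, and RMC-6236 overlapped control. LSS, which closes the sterol ring, had 0.58 ± 0.05. The sterol reductase DHCR7 had 0.52 ± 0.05 and HMGCS1, which opens the mevalonate pathway, had 0.49 ± 0.04, and RMC-6236 alone changed them by -1.05 and -0.47 log2 units.

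NRF2 targets and glutathione genes, which handle oxidants, had 12 of 20 tested members above and 2 below, with a median of 0.19. Besides HMOX1 these included GCLM, the modifier subunit of glutathione synthesis, at 33.3, 33.6 and 32.8 FPKM in the combination, 16.2, 14.4 and 14.4 with RMC-6236, 22.8, 21.9 and 21.3 with tazemetostat and 17.7, 16.5 and 16.8 in control (0.74 ± 0.06, adjusted p = 2.4e-06). GCLM was highest in the combination, while RMC-6236 alone lowered it slightly (-0.17 ± 0.04). GCLC, the catalytic subunit, had 0.42 ± 0.05, and the ketosteroid reductase AKR1C1, which has near-identical paralogues, had 0.70 ± 0.09.

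Ribosome biogenesis genes, which RMC-6236 lowered by a median of -1.3, had 13 of 26 above additivity and a median of 0.145; by limma 0 were below, at an unadjusted p under 0.05 as well. Values were small, with the helicase DDX21 at 19.5, 19.6 and 19.6 FPKM in the combination, 18.4, 18.5 and 18.6 with RMC-6236, 54, 57.3 and 55.2 with tazemetostat and 63.7, 64.5 and 64.3 in control (0.29 ± 0.03). Tazemetostat lowered DDX21 without RMC-6236 (-0.21 ± 0.02) and raised it slightly with RMC-6236 (0.08 ± 0.02). Rescaled libraries gave 19 above. PES1 and DKC1, both needed for ribosomal RNA processing, each had 0.27. Autophagy and lysosome genes had 8 of 26 above and, by limma, 0 below (0 at an unadjusted p under 0.05), led by WIPI1, an early autophagy protein, at 0.49 ± 0.06. The glycolysis and hypoxia list split, with 11 of 25 above, among them the glycolytic regulator PFKFB3 (0.57 ± 0.07), and 4 below, among them the oxygen sensor EGLN3 (-0.54 ± 0.09). The 13 mitochondrially encoded genes had 5 above and, by limma, 0 below (1 at an unadjusted p under 0.05).

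**Figure D4:**
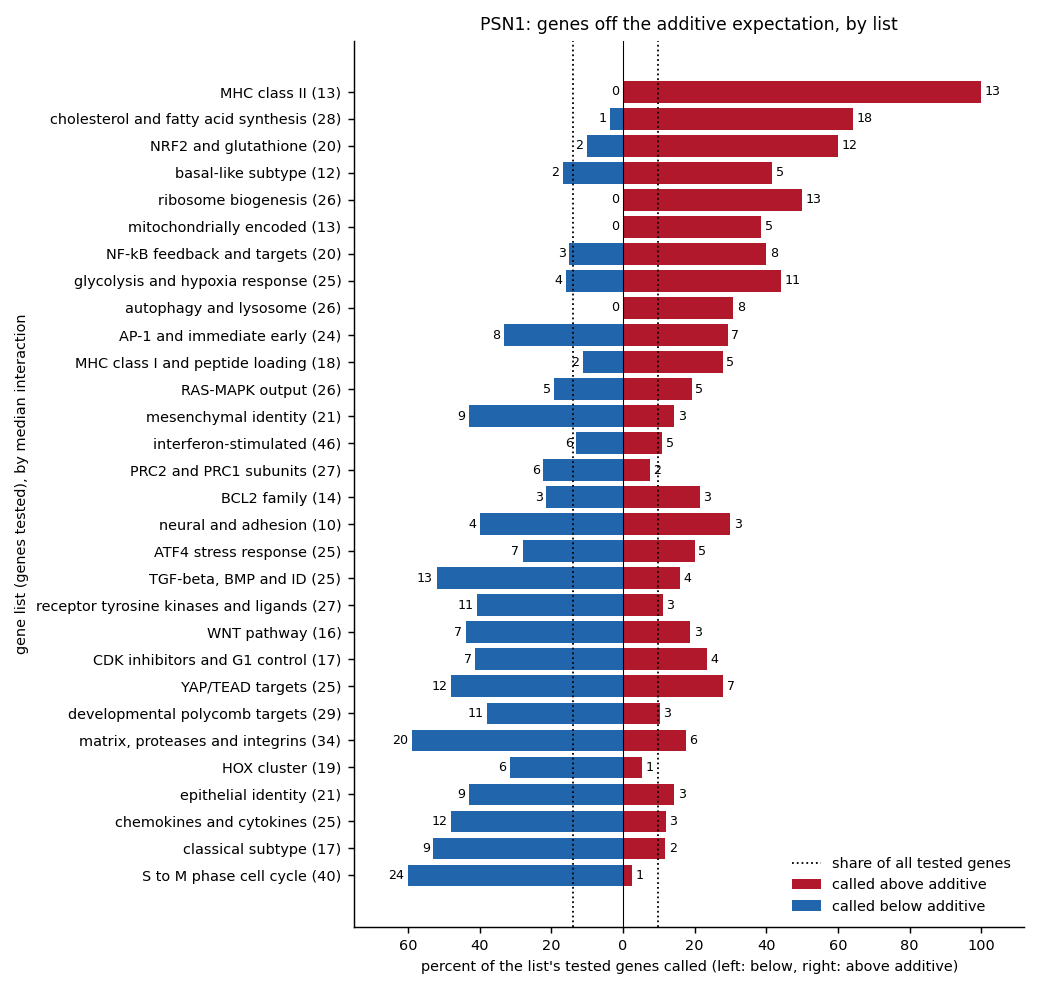
Bars give, for each of the 30 lists with at least 10 tested genes, the percent of tested members called above additivity (right) and below it (left), with the counts at the bar ends and the number tested in parentheses; dotted lines mark 9.8% above and 13.8% below over all tested genes. MHC class II is at the top with 13 of 13 above, and the S to M phase list at the bottom with 24 of 40 below.

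Cell cycle genes lay on the other side. Of 40 tested genes of S to M phase, 24 were below additivity and 1 above, with a median of -0.32. TYMS, which makes thymidylate for DNA synthesis, read 8.16, 7.69 and 7.67 FPKM in the combination, 14, 14.3 and 13.8 with RMC-6236, 37.8, 37.5 and 38.3 with tazemetostat and 41.6, 41.9 and 44.4 in control (-0.60 ± 0.04, adjusted p = 9.4e-07). TYMS was far lower with RMC-6236 than with tazemetostat, and the combination was lowest in all 3 libraries, against an expectation of 12.4 FPKM. The mitotic checkpoint kinase BUB1 read 10.8, 11.5 and 11 FPKM in the combination, 18.4, 18.2 and 18.9 with RMC-6236, 19, 19.6 and 19.7 with tazemetostat and 21.1, 20.7 and 21.2 in control (-0.58 ± 0.04, adjusted p = 4.9e-07). The combination was again lowest, with no overlap between arms. BUB1B had -0.54 ± 0.05 and the mitotic kinesin KIF20A -0.50 ± 0.04. Among 17 CDK inhibitors and G1 regulators, 4 were above and 7 below: beside CDKN1A and CDKN1C below stood BTG2, an antiproliferative gene, above, at 6.62 ± 0.364 FPKM in the combination, 1.21 ± 0.166 with RMC-6236, 2.34 ± 0.248 with tazemetostat and 1.07 ± 0.0906 in control (1.10 ± 0.10).

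Of 14 tested genes of the BCL2 family, which control apoptosis, 3 were above and 3 below. BMF, a BH3-only killer protein, read 35.6, 35.9 and 35.7 FPKM in the combination, 47.6, 47.8 and 47.8 with RMC-6236, 0.657, 0.942 and 0.896 with tazemetostat and 0.346, 0.324 and 0.472 in control. RMC-6236 raised it in both settings, and the combination stayed under RMC-6236 alone and under the expectation of 63.6 FPKM (-0.81 ± 0.08, adjusted p = 8.9e-06; -1.37 at a pseudocount of 0.1). BCL2L11, the BH3-only protein BIM, had -0.33 ± 0.05, and the protective BCL2L1 had 0.31 ± 0.04.

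Matrix, protease and integrin genes had 20 of 34 below and 6 above, with a median of -0.19. MMP1, another collagenase, averaged 14 ± 0.534 FPKM in the combination, 1.57 ± 0.33 with RMC-6236, 236 ± 7.82 with tazemetostat and 20.6 ± 0.326 in control. Its interaction of -0.91 ± 0.10 on log2(FPKM + 1) was -0.42 and no longer called at a pseudocount of 0.1 (adjusted p = 0.0646). The laminin chain LAMB3 went the other way, at 33.9, 34.7 and 34.6 FPKM in the combination, 17.1, 18.2 and 17.2 with RMC-6236, 15.4, 15.1 and 15.1 with tazemetostat and 14.3, 14.8 and 15.3 in control (0.90 ± 0.04, adjusted p = 2.0e-08). Tazemetostat passed the test for LAMB3 only with RMC-6236, and the combination did not overlap with any other arm. TGF-beta, BMP and ID genes had 13 of 25 below and 4 above, led by TGFB3 (-1.3 ± 0.09) and BMP4 (-0.90 ± 0.05), both ligands that RMC-6236 alone raised. Of 27 receptor tyrosine kinases and ligands 11 were below and 3 above. The WNT5A receptors in it diverged, with ROR2 above, at 4.16 ± 0.103 FPKM in the combination, 0.717 ± 0.0713 with RMC-6236, 0.552 ± 0.0234 with tazemetostat and 0.198 ± 0.0695 in control (1.21 ± 0.08), and ROR1 below (-0.97 ± 0.05).

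Chemokines and cytokines, a group that tazemetostat raised by a median of 0.635 with RMC-6236 and 0.96 without it, had 12 of 25 below additivity and 3 above, with a median of -0.27. CCL20, which attracts CCR6-bearing lymphocytes, read 3.81, 3.46 and 2.69 FPKM in the combination, 0.751, 1.02 and 0.719 with RMC-6236, 9.51, 8.76 and 8.48 with tazemetostat and 0.969, 1.08 and 1.16 in control (-1.02 ± 0.13). Tazemetostat raised CCL20 in both settings, less with RMC-6236. CXCL5, a neutrophil attractant, had -0.98 ± 0.13 and TSLP, an epithelial alarm cytokine, -1.08 ± 0.09 (-1.74 at a pseudocount of 0.1). CCL2, the monocyte attractant, was above, at 19.5, 18.8 and 17.9 FPKM in the combination, 0.73, 0.612 and 0.34 with RMC-6236, 10.8, 12 and 12.1 with tazemetostat and 0.991, 0.89 and 0.903 in control (0.96 ± 0.11, adjusted p = 4.7e-05). NF-kB feedback genes leaned upward, with 8 of 20 above and 3 below. The inhibitor TNFAIP3 had 0.37 ± 0.04 and the subunit RELB 0.43 ± 0.08, while NFKBIZ lay below (-0.61 ± 0.05).

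Genes of pancreatic lineage lay below more often than the background. The classical subtype list had 9 of 17 below and 2 above, with a median of -0.28. GATA6, the endoderm transcription factor that marks the classical subtype, read 15.2, 15.4 and 15.4 FPKM in the combination, 21.1, 23.2 and 21.5 with RMC-6236, 16.1, 16.6 and 15.8 with tazemetostat and 13.1, 15.3 and 13.4 in control (-0.69 ± 0.07, adjusted p = 1.8e-05). RMC-6236 alone raised GATA6 by 0.62 ± 0.05 and tazemetostat alone by 0.20 ± 0.05. With RMC-6236 present tazemetostat lowered GATA6 (-0.49 ± 0.05), and the combination did not exceed tazemetostat. The tetraspanin TSPAN8 had -0.73 ± 0.09 and the gastric mucin MUC5AC -0.67 ± 0.05. Of 21 epithelial genes 9 were below and 3 above, with a median of -0.26. The mesenchymal list had the same counts, with a median of -0.01, so a lean below was not particular to lineage genes. Of the epithelial genes 2 reached 1 FPKM in the combination arm alone, and at a pseudocount of 0.1 only 1 was above. The epithelial factor ELF3 had -0.64 ± 0.04 and the keratin KRT18 -0.62 ± 0.03. The basal-like list had 5 of 12 above and 2 below, but 3 of the 12 reached 1 FPKM in the combination arm alone. The NRF2, matrix, TGF-beta and receptor tyrosine kinase lists each had 1 such member.

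Developmental polycomb targets, genes that PRC2 covers in many cell types, had 11 of 29 below and 3 above, with a median of -0.18 (69 were listed). The homeobox factor IRX3 read 4.76, 4.73 and 5.12 FPKM in the combination, 8.57, 10.3 and 8.69 with RMC-6236, 3.18, 2.79 and 2.58 with tazemetostat and 2.69, 2.4 and 2.59 in control (-0.91 ± 0.10). RMC-6236 raised IRX3, and the tazemetostat effect on it passed the test only with RMC-6236, where it was a fall. HOX genes had 6 of 19 below and 1 above, led by HOXB2 (-0.77 ± 0.06). Among 27 subunits of PRC2 and PRC1, 6 were below and 2 above. Besides EZH2, the accessory subunits PHF19 and JARID2 had -0.43 ± 0.05 and -0.34 ± 0.06.

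RAS-MAPK output, which RMC-6236 lowered by a median of -1.77, had 5 of 26 genes above and 5 below, with a median of 0.01. The ERK phosphatase DUSP4 read 19.7, 20.1 and 19.7 FPKM in the combination, 12.7, 12.7 and 12.9 with RMC-6236, 27.1, 27.9 and 27.6 with tazemetostat and 25.8, 25.5 and 24 in control (0.47 ± 0.04, adjusted p = 3.1e-06). MYC averaged 49.7 ± 1.32 FPKM in the combination, 45.3 ± 1.19 with RMC-6236, 116 ± 1.15 with tazemetostat and 136 ± 1.14 in control (0.36 ± 0.03). For DUSP4 and MYC the combination remained below control but above RMC-6236 in every library. Other lists had calls on both sides, each over the background share. AP-1 and immediate early genes had 7 of 24 above and 8 below, and YAP/TEAD targets, which include THBS1, had 7 of 25 above and 12 below. WNT genes had 3 of 16 above and 7 below. Of these 16, 2 reached 1 FPKM in the combination arm alone, and at a pseudocount of 0.1 only 1 was above. ATF4 stress genes had 5 of 25 above and 7 below, mesenchymal genes 3 of 21 and 9, and neural and adhesion genes 3 of 10 and 4. The last list held the axon guidance receptor ROBO1 above (1.16 ± 0.06, but 0.65 at a pseudocount of 0.1, still called) and SEMA3A below (-1.07 ± 0.07). ROBO1 averaged 11.1 FPKM in the combination, 0.299 with RMC-6236, 3.61 with tazemetostat and 0.107 in control. As a plain ratio of means its tazemetostat rise was similar with and without RMC-6236. Whether ROBO1 lies above additivity therefore depends on the pseudocount.

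The same contrast was computed in SW1990, another human pancreatic cancer line, and in mouse KPC pancreatic cancer cells, in the same 4 arms of 3 libraries each. Their tables were normalised apart from PSN1, so no test was made between lines. In SW1990 1166 of 12913 tested genes lay above (9.03%) and 799 below (6.19%), and in KPC cells 1521 of 12567 lay above (12.1%) and 1721 below (13.7%). Of 11547 genes tested in PSN1 and SW1990, 205 were above in both, which is 18.9% of the PSN1 and 21.8% of the SW1990 calls, and 191 were below in both, 11.9% and 27.2%. Opposite calls also occurred: 107 genes above in PSN1 were below in SW1990, and 198 below in PSN1 were above in SW1990. With KPC cells, 194 of 9148 shared genes were above in both (21.1% of the PSN1 and 17.9% of the KPC calls), 399 below in both (29.8% of each), and 158 and 160 opposite. Across genes the interactions in PSN1 had a Spearman rho of 0.03 with SW1990 and 0.12 with KPC cells.

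Of 8716 genes tested in all 3 lines, 271 were called in all 3. Of these, 41 were above in all and 58 below in all, and the rest, the larger part, differed in direction between lines. ALDH1A1 had interactions of 3.04 in PSN1, 1.35 in SW1990 and 0.67 in KPC cells, and its size in PSN1 depends on the pseudocount. MMP13 had 2.61, 2.32 and 0.28 in the same order, and SLC40A1 1.99, 0.33 and 0.60. Below in all 3 were F3 with -1.41, -0.69 and -1.81 and CDKN1A with -1.64, -0.32 and -0.25. Chosen after their values were seen, the matrix proteoglycan VCAN (-1.06, -0.99 and -0.46), the Notch ligand JAG1 (-0.91, -0.55 and -0.39) and the receptor EGFR (-0.58, -0.40 and -0.47) were also below in all. Among the 89 PSN1 genes at 1 log2 unit or more above, 43 were tested in SW1990 and 25 of them were called above there; 33 were tested in KPC cells and 15 called above. Of the 43 below, 9 of 29 and 12 of 23 were called below.

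**Figure D5:**
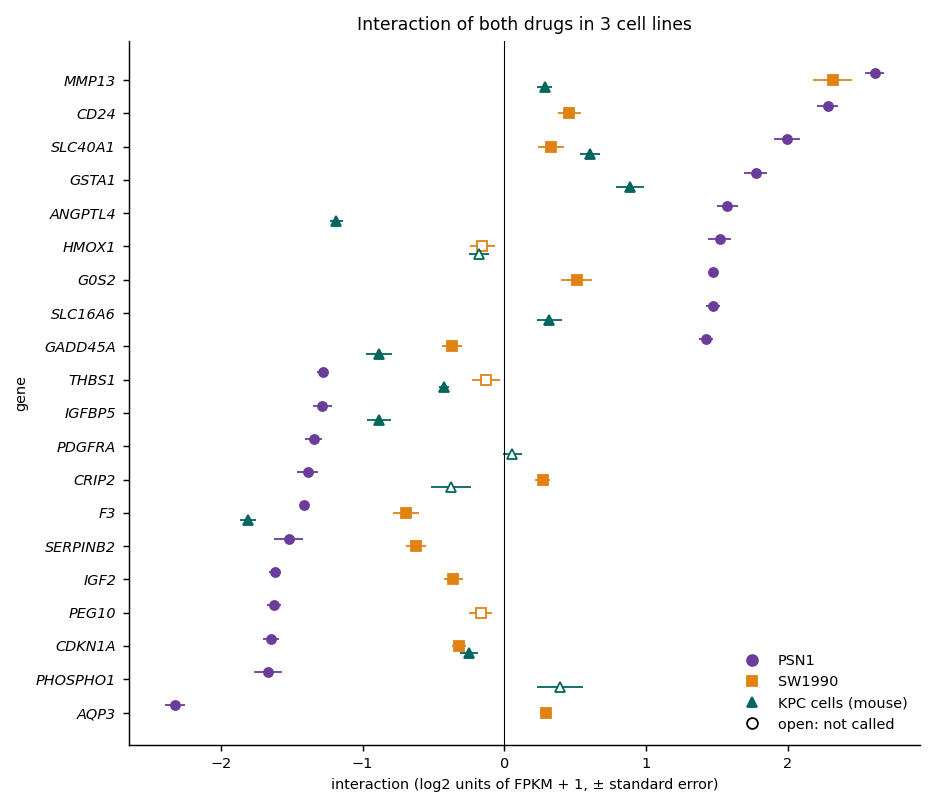
Interaction in log2 units of FPKM + 1, with standard error, for the 20 named genes (9 above and 11 below in PSN1) that were tested in at least 1 other line; circles are PSN1, squares SW1990 and triangles KPC cells, and open symbols did not pass the test. F3 and CDKN1A are negative in all 3 lines and MMP13 positive in all 3, while ANGPTL4 and GADD45A are positive in PSN1 and negative in KPC cells.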

How the data were processed

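RNA was sequenced from 12 PSN1 libraries, 3 per arm, assigned to arms by the sample titles. Per the labels' protocols the kit was stranded; whether counting used strand is not given in the sources used here, so overlapping and antisense genes are uncertain. Per the submitters' processing notes FastQC 0.11.2, STAR 2.5.3a and StringTie 1.3.1c were used with hg38. The authors deposited FPKM values in a separate table for each line, used as deposited. Depth is unknown, and 0 value columns were left unmapped.

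Genes at 1 FPKM or more in at least 3 libraries were fitted as log2(FPKM + 1) with 1 mean per arm in limma 3.58.1 (R 4.3.3, statmod 1.5.0; eBayes with trend and robust). All 13358 genes entered the Benjamini-Hochberg adjustment of two-sided p-values, and calls needed an adjusted p under 0.05. The fit was tested on simulated data. SW1990 and KPC tables were fitted alike and matched by gene ID or, for mouse, by upper-cased symbol. Figures used matplotlib 3.10.9 and pandas 2.3.3 in Python 3.11.15.

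The question, members and 31 gene lists were chosen with earlier results of these data known. Named genes were EZH2, DUSP6, the 12 furthest above and 12 furthest below additivity under the conditions given in the text, up to 4 called members per list and the leading genes of each pattern of tazemetostat effects; those outside are marked as chosen after their values were seen. Alternatives were a pseudocount of 0.1, no filter, a filter on the mean, rescaling, a replicate block, plain eBayes and leaving out each library. Tumour samples were not analysed here, and no sequences are printed.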

Additional observations from a re-analysis of the deposited data

Results flagged for a closer look

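Some named genes were called on one side of additivity in PSN1 and on the other side in SW1990 or KPC cells, with all 3 combination libraries of each line on that line's side of its additive expectation. The difference between lines was not tested, because the tables were normalised separately. Interactions are in log2 units of FPKM + 1, and a line that is not mentioned for a gene did not test it.

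Of the genes above additivity in PSN1, GADD45A had 1.42 in PSN1, -0.37 in SW1990 and -0.885 in KPC cells. ANGPTL4 had 1.57 in PSN1 and -1.19 in KPC cells, and CCL2 had 0.958 and -0.67. For 4 genes PSN1 and SW1990 were both called above and KPC cells below: BTG2 had 1.1 in PSN1, 0.545 in SW1990 and -0.819 in KPC cells, RELB had 0.428, 0.37 and -0.23 in that order of lines, TNFAIP3 0.369, 0.419 and -0.468, and BCL2L1 0.313, 0.364 and -0.255. DUSP4 had 0.471 in PSN1 and -0.651 in KPC cells, with 0.103 in SW1990 not called. The lipid gene SCD had 0.618 in PSN1 and -0.255 in SW1990. DHCR7 had 0.522 in PSN1 and -0.2 in SW1990, with 0.118 in KPC cells not called. GCLC had 0.416 in PSN1, -0.453 in SW1990 and 0.288 in KPC cells, where it was called above.

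Of the genes below additivity in PSN1, BMF had -0.813 in PSN1, 0.623 in SW1990 and 0.525 in KPC cells. AQP3 had -2.33 in PSN1 and 0.294 in SW1990, and CRIP2 had -1.39 and 0.269, with -0.375 in KPC cells not called. For 4 genes PSN1 and KPC cells were both called below and SW1990 above: IRX3 had -0.907 in PSN1, 0.607 in SW1990 and -0.475 in KPC cells, BMP4 had -0.897, 0.467 and -0.281 in that order of lines, KRT18 -0.621, 0.47 and -0.535, and NFKBIZ -0.61, 0.705 and -0.134. CCL20 had -1.02 in PSN1 and 0.569 in KPC cells, TNFSF9 -0.987 and 0.455, and ELF3 -0.643 and 0.42, and in SW1990 these 3 were not called (-0.141, -0.236 and 0.045).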

How the results depend on the processing

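The count of genes with an interaction in PSN1 stayed within 1.5 times of 3157 in every alternative run: 2844 with a pseudocount of 0.1, 3188 without a filter, 3225 after rescaling, 3025 with a replicate block, 3105 with plain eBayes and 2900 with the filter on the mean. Leaving out each library in turn gave 2761 to 2928 genes, with 1141 to 1232 above additivity and 1592 to 1739 below. The share above was 41.5% of calls, and 51.3% after rescaling. Of the 3157, 2733 were called with the same sign at a pseudocount of 0.1 (86.6%), 2879 after rescaling (91.2%) and 2917 with the block (92.4%).

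Of 91 genes named, AXIN2 reversed at a pseudocount of 0.1 (-0.93), and MMP1 and CXCL10 lost their calls there; the cause was not tested. DUSP6, never called, had -0.0035 at a pseudocount of 0.1 and, without each library in turn, -0.017 to 0.033. HLA-DOA was not tested with the filter on the mean, which it did not pass. No other named gene lost its call or changed sign in the alternatives it was tested in. Deviations from the arm means correlated at -0.051 to 0.161 between same-numbered libraries of different arms and at -0.154 to 0.0872 between others. Not every same-numbered pair was over 0.1, so the numbers were not taken to pair samples; 5 of 12 libraries correlated best, on average, with their own number. The block changed no call of a named gene. FPKM hold no read counts, so counting error at low levels is not known.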
